A study of Mus musculus with 6 samples.

Results

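The immediate early genes described here are Fos, Fosb, Junb, Egr1, Egr2, Arc, Npas4, Nr4a1, Ier2 and Btg2, 10 genes chosen by name as genes that neuronal activity induces. Of these, 9 had a row in the tables and all 9 passed the filter on low counts, out of 22651 genes listed and 13969 tested. Npas4 was not analysed here. Bulk mRNA of the telencephalon (cortex and striatum) was sequenced at postnatal day 0, with 3 WT mice and 3 TSC1 mice. WT mice had the genotype TSC1 flox/flox;Emx1 +/+ and TSC1 mice the genotype TSC1 flox/flox;Emx1-cre/+, so both groups carried the floxed gene and Cre was present only in the TSC1 mice. The Emx1 locus drove Cre in embryonic dorsal cortex, where exons 17 and 18 of Tsc1 were removed. The tissue therefore also held striatal and other cells outside the Emx1 lineage. In bulk tissue, fewer cells of a type and less RNA per cell cannot be told apart.

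Immediate early genes are transcribed within minutes of a stimulus from factors already present in the cell, without new protein synthesis. In neurons, calcium entry through NMDA receptors and voltage-gated channels activates MAP kinase and calcium/calmodulin kinase pathways, which act on CREB at cAMP response elements (CRE) and on SRF and its Elk partners at CArG boxes. The products include transcription factors of the AP-1, EGR and NR4A families and synaptic effectors such as Arc. Their transcripts are short-lived, and in cortex they are widely used as markers of recent neuronal firing.

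The promoters of Fos, Fosb and Btg2 are shown because Fosb was the one gene whose genotypes did not overlap, and Fos and Btg2 varied in opposite ways among the mice. Each sequence is the 250 bases before a transcript start listed for the gene by RefSeq (GRCm38.p6, the assembly of mm10), written 5′ to 3′ on the strand of the gene. Capitals mark the CRE TGACGTCA, its first 5 letters TGACG, the TATA sequence TATAAA and the EGR motif GCGNGGGCG, all searched on both strands.
Fos, chr12:85473640-85473889, plus strand: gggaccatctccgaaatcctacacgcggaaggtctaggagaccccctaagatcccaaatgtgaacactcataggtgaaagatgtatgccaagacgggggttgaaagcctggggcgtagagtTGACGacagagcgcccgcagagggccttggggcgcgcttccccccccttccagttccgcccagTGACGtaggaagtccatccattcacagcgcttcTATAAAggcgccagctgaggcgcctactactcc
Fosb, chr7:19310046-19310295, minus strand: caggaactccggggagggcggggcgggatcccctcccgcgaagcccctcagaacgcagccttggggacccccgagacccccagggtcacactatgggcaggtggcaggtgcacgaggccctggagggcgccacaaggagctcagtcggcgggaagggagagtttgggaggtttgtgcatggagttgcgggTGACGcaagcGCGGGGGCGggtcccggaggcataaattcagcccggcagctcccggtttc
Btg2, chr1:134079156-134079405, minus strand: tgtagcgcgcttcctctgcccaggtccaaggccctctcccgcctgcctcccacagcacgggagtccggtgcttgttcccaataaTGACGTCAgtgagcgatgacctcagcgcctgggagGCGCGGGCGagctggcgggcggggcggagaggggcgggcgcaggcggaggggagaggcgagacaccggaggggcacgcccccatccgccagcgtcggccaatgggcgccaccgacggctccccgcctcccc

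The Fos window held TGACG at 129 and at 66 bases before the start and TATAAA at 33 bases before it. The Fosb window held TGACG at 60 bases and the EGR motif at 50 bases before the listed start. The RefSeq span of Fosb reaches 73 bases further upstream than that start, to 19310118, and both motifs lie inside it. Btg2 was the only one of the 6 genes with a window here whose 250 bases held the full CRE, at 166 bases before the start, and it also held the EGR motif at 131 bases. Among the 32851 RefSeq promoter windows of the same length, 1.546% held the full CRE, 17.77% TGACG, which is part of the CRE, 12.37% TATAAA and 4.697% the EGR motif. The AP-1 motif TGANTCA was found in none of the 10 windows of these 6 genes and in 6.749% of all windows. The CArG box was found in 4 of the 5 windows of Egr2 and in 1.467% of all. The Egr2 windows that start at 67537619, 67537620 and 67537680 overlap and hold the same CArG site, so the 4 windows do not count separate sites. All 5 Egr2 windows lie inside the RefSeq span of the gene. These matches describe letters only, and the other windows were those of Junb and Nr4a1. Sites further than 250 bases before a listed start were not searched, and no window of Egr1, Arc or Ier2 was used.

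Total expected counts ranged from 14119365 to 17772865 per library, so that 3 counts, the floor below which no expression was read, corresponded to between 0.169 and 0.212 CPM. The deleted gene was read first: Tsc1 (chromosome 2, 28641228 to 28691167) had 50.23, 31.99 and 28.42 TPM in WT replicates 1, 2 and 3 and 27.09, 21.73 and 22.42 TPM in TSC1 replicates 1, 2 and 3. All TSC1 libraries lay below all WT libraries, with a log2 fold change of -0.66 (SE 0.175, edgeR adjusted p = 0.1). The deletion covers 2 exons only, so this gene-level value does not measure it directly. Groups that did not overlap, in either direction, were seen for 22.7% of all tested genes. Y-linked genes had 3562 counts in WT replicate 3, 3412 in TSC1 replicate 3 and at most 1 in each other library. Xist had 46 and 69 counts in these replicate 3 libraries and 40431 to 57386 in the others. The labels give no sex, and the part of sex in the immediate early gene values was not tested. The dorsal telencephalon genes Emx1 and Lhx2 were present and neither was called. Of 7 genes of the diencephalon, midbrain and hindbrain only Lhx9, at 34 to 148 counts, and Gbx2, at 0 to 23 counts, passed the filter. Hoxb2 was at 0 in every library.

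None of the 9 immediate early genes was called between TSC1 and WT, where a call is a Benjamini-Hochberg adjusted p below 0.05 in edgeR's quasi-likelihood test over all tested genes. Over those genes the test called 1.52%. Without adjustment, 1 of the 9 genes, Fosb, had a p below 0.05, against 18% of all tested genes, and 8.93% of all tested genes had such a p and were lower in TSC1. DESeq2 gave an adjusted p for 8 of the 9 genes and limma tested 8, all but Fosb in each. Both called 0, with 0 of the 8 at an unadjusted p below 0.05. Over all genes DESeq2 called 637 of 13824, and limma 267 of 13844 on log2(TPM + 1) and 246 on log2(TPM + 0.1). For Fosb, which passed the filter on low counts through WT alone, the unadjusted DESeq2 p was 0.125. The sum of the 9 genes lay between 64.07 and 76.94 TPM in WT and between 67.31 and 76.95 TPM in TSC1. In 3 genes the fold change was above 0 and in 6 below. The median over the 9 genes was -0.08 on the log2 scale, against -0.003 over all tested genes. The 95% intervals of single genes were wide, so that a p above the threshold here does not show equal levels.

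**Figure D1:**
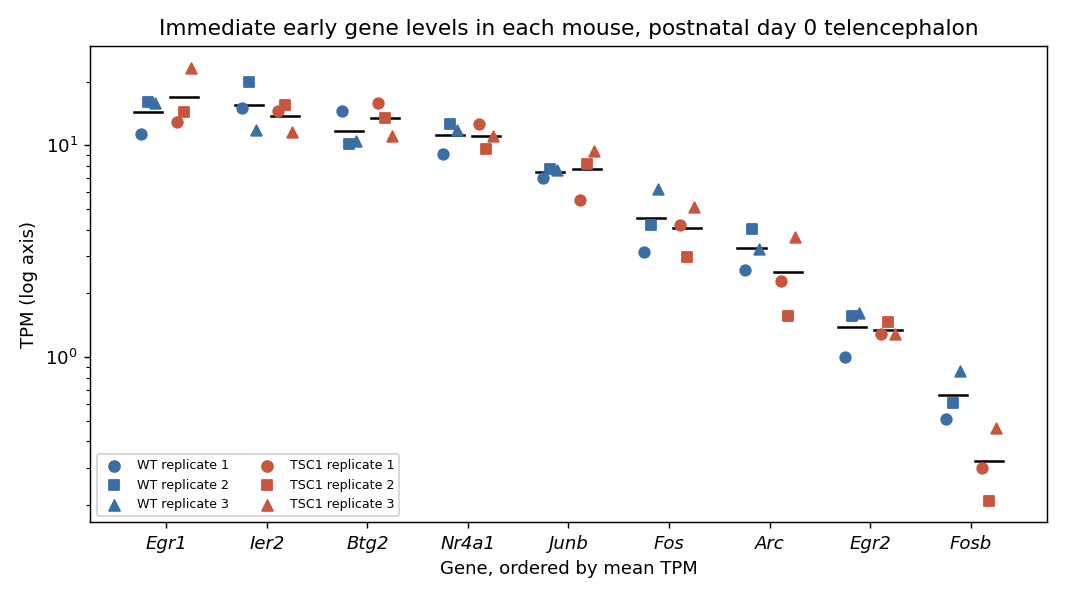
TPM on a log axis of 9 immediate early genes in each of 3 WT (blue) and 3 TSC1 (red) mice, with the marker shape giving the replicate number and black bars the group means. The groups overlap for every gene but Fosb, and mean levels run from 15.6 TPM for Egr1 to 0.492 TPM for Fosb.

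The level of the genes differed far more between genes than between genotypes. TPM divides by transcript length, so levels can be set side by side. Over the 6 mice, Egr1 had a mean of 15.6 ± 4.18 TPM (SD, n = 6), followed by Ier2 at 14.7 ± 3.04 TPM, Btg2 at 12.6 ± 2.32 TPM and Nr4a1 at 11.2 ± 1.53 TPM. The order among these 4 was not fixed: Egr1 exceeded Ier2 in only 2 of 6 libraries, Ier2 exceeded Btg2 in 5 and Btg2 exceeded Nr4a1 in 4. Below them the order was the same in every library. Junb had 7.58 ± 1.28 TPM (SD, n = 6), Fos 4.31 ± 1.24, Arc 2.90 ± 0.927, Egr2 1.37 ± 0.226 and Fosb 0.492 ± 0.231. The ranges of neighbours over the 6 libraries overlapped everywhere except between Egr2 and Fosb. Egr1, the highest, lay above 61.0% of all genes listed by mean TPM, and Fosb, the lowest, above 35.6%.

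The AP-1 genes encode subunits of a dimeric transcription factor, in which Fos proteins pair with Jun proteins. Fos (chromosome 12, 85473890 to 85477273) had 3.12, 4.22 and 6.25 TPM in WT replicates 1, 2 and 3 and 4.19, 2.97 and 5.11 TPM in TSC1 replicates 1, 2 and 3. Each value rested on between 31 and 68 counts. Replicate 3, the library with Y-linked reads, was the highest in each group, and the groups overlapped. Fos differed by a log2 fold change of -0.17 (SE 0.306, 95% interval -0.86 to 0.52, edgeR adjusted p = 0.81). Its direction turned without TSC1 replicate 2, to 0.0064, and without WT replicate 3, to 0.14.

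Fosb (chromosome 7, 19302696 to 19310051), a Fos relative whose truncated product accumulates after repeated stimulation, was the one gene whose groups did not overlap. It had 0.51, 0.61 and 0.86 TPM in WT replicates 1, 2 and 3 and 0.3, 0.21 and 0.46 TPM in TSC1 replicates 1, 2 and 3. Of all tested genes, 22.7% had groups that did not overlap. The counts behind these values were 11, 15 and 17 in WT and 6, 4 and 10 in TSC1. The fitted level in TSC1 was 0.495 times that in WT (95% interval 0.26 to 0.942), a log2 fold change of -1.01 (SE 0.412). The edgeR p was 0.0354 unadjusted and 0.238 adjusted, so the difference did not pass. Fosb passed the filter on low counts through its WT libraries alone, since no TSC1 library reached the level of the filter. Its p, interval and lack of overlap are therefore not free of that selection, and no conclusion is drawn from them. In the 13 alternatives that fitted Fosb, the log2 fold change lay between -1.38 and -0.78. The edgeR adjusted p among them lay between 0.138 and 0.552.

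Junb (chromosome 8, 84974484 to 84978718), the Jun partner in this set, had 7.02, 7.7 and 7.66 TPM in WT replicates 1, 2 and 3 and 5.51, 8.2 and 9.38 TPM in TSC1 replicates 1, 2 and 3. The WT values lay close together and inside the range of TSC1. Junb differed by a log2 fold change of 0.02 (SE 0.217, 95% interval -0.47 to 0.51, edgeR adjusted p = 0.975). Its longer GENCODE model shares exonic sequence with Prdx2 on the opposite strand, at 866 TPM or more in each library, while the RefSeq model used for counting overlaps no other RefSeq gene. The sources used here do not state that the counting used strand, and the part of Prdx2 in the value of Junb was not tested.

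Other AP-1 genes, named as relatives after their values were seen, were not called either. Jun had 36.5 ± 4.04 TPM in WT and 39.2 ± 5.08 TPM in TSC1 (SD, n = 3 each), and Jund 94.05 ± 11.9 and 89.7 ± 8.32 TPM. Fosl2, a Fos relative, had 32.4 ± 7.74 TPM in WT and 49.9 ± 9.39 TPM in TSC1, a log2 fold change of 0.60 (SE 0.164, edgeR adjusted p = 0.104). Jun and Jund were thus more abundant than Junb in every library, and Fosl2 more than Fos and Fosb.

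The EGR genes encode zinc finger factors that bind GC-rich sites. Egr1 (chromosome 18, 34859823 to 34864984) had 11.29, 16.0 and 15.91 TPM in WT replicates 1, 2 and 3 and 12.85, 14.35 and 23.31 TPM in TSC1 replicates 1, 2 and 3. TSC1 replicate 3 stood above the other libraries, with 412 counts against 198 to 319 in the rest. Egr1 had a log2 fold change of 0.20 (SE 0.242, 95% interval -0.35 to 0.75, edgeR adjusted p = 0.7), and without TSC1 replicate 3 it was -0.12. Egr2 (chromosome 10, 67535475 to 67542188), which is also known from hindbrain patterning and from Schwann cells, was near 1 TPM throughout. It had 1.0, 1.56 and 1.61 TPM in WT replicates 1, 2 and 3 and 1.28, 1.47 and 1.29 TPM in TSC1 replicates 1, 2 and 3, and the TSC1 range lay inside that of WT. Egr2 had a log2 fold change of -0.08 (SE 0.278, 95% interval -0.71 to 0.55, edgeR adjusted p = 0.908), on 17 to 30 counts per library.

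Egr3 and Egr4, the remaining EGR genes, had positive fold changes that did not pass. Egr3 had 6.35 ± 1.11 TPM in WT and 8.69 ± 1.77 TPM in TSC1 (SD, n = 3 each), with a log2 fold change of 0.42 (SE 0.22, edgeR adjusted p = 0.356). Egr4 had 1.06 ± 0.542 and 1.82 ± 0.423 TPM, with 0.71 (SE 0.39, edgeR adjusted p = 0.375) on 6 to 23 counts. Their corepressors Nab1 and Nab2, which bind EGR proteins and limit their activity, had log2 fold changes of 0.17 and 0.12, and neither was called.

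Nr4a1 (chromosome 15, 101254269 to 101274795), an orphan nuclear receptor, was the least variable of the 9 genes in TPM over all mice. It had 9.09, 12.68 and 11.85 TPM in WT replicates 1, 2 and 3 and 12.65, 9.59 and 11.07 TPM in TSC1 replicates 1, 2 and 3. The TSC1 values lay inside the WT range. The highest library exceeded the lowest by 1.39 times, against 2.06 times for Egr1 and 4.1 times for Fosb. The level in TSC1 was 0.968 times that in WT with a 95% interval of 0.74 to 1.27 (edgeR adjusted p = 0.912). The relatives Nr4a2 and Nr4a3 were more abundant than Nr4a1, at 48.2 ± 9.03 and 28.5 ± 12.7 TPM in WT and 63.7 ± 15.8 and 45.04 ± 14.4 TPM in TSC1 (SD, n = 3 each). Their log2 fold changes of 0.38 and 0.63 did not pass (edgeR adjusted p = 0.293 and 0.308).

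Arc (chromosome 15, 74669083 to 74672570) encodes a synaptic protein that promotes removal of AMPA receptors. It had 2.58, 4.03 and 3.25 TPM in WT replicates 1, 2 and 3 and 2.29, 1.56 and 3.69 TPM in TSC1 replicates 1, 2 and 3. TSC1 replicates 1 and 2 lay below all WT libraries, and TSC1 replicate 3 above WT replicates 1 and 3. Arc had a log2 fold change of -0.41 (SE 0.318, 95% interval -1.12 to 0.31, edgeR adjusted p = 0.54). Without TSC1 replicate 3 it was -0.82, with an edgeR adjusted p of 0.131. Arc was below 0 in all 16 alternatives.

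Ier2 encodes a nuclear protein and Btg2 an antiproliferative protein that also marks progenitors about to make neurons. Ier2 (chromosome 8, 84661331 to 84662852) had 14.98, 19.95 and 11.87 TPM in WT replicates 1, 2 and 3 and 14.55, 15.44 and 11.53 TPM in TSC1 replicates 1, 2 and 3. Ier2 had a log2 fold change of -0.21 (SE 0.203, 95% interval -0.67 to 0.24, edgeR adjusted p = 0.619), and WT replicate 2 alone lay above the TSC1 range. Btg2 (chromosome 1, 134075170 to 134079120) had 14.48, 10.19 and 10.53 TPM in WT replicates 1, 2 and 3 and 15.81, 13.52 and 11.11 TPM in TSC1 replicates 1, 2 and 3. In Btg2, TSC1 replicate 1 and WT replicate 1 were the highest libraries. Btg2 had a log2 fold change of 0.17 (SE 0.164, 95% interval -0.20 to 0.54, edgeR adjusted p = 0.619).

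**Figure D2:**
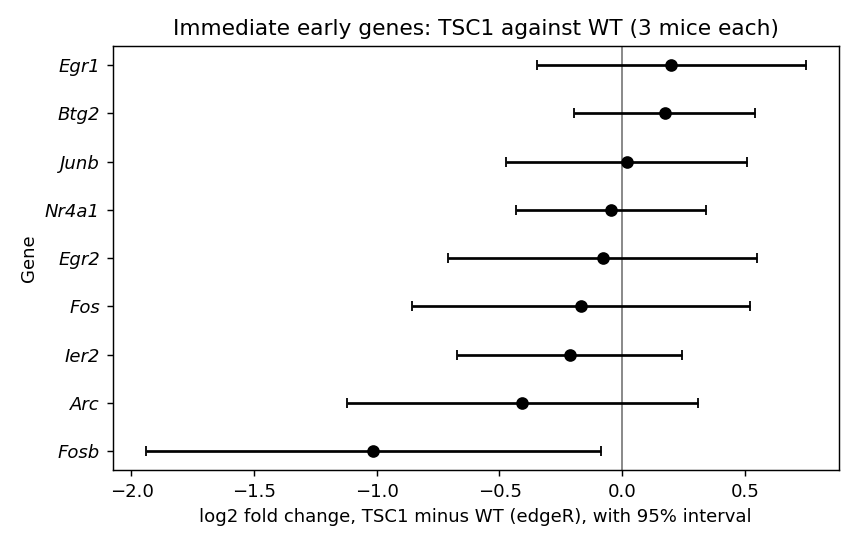
Log2 fold change of TSC1 minus WT for 9 immediate early genes from the edgeR fit (points), with 95% intervals (bars), for 3 mice in each group. The interval of Fosb, -1.94 to -0.09, lies below 0 before adjustment, and the other 8 intervals cover 0. Fosb passed the filter on low counts through WT alone.

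The intervals set how large a change these 6 mice leave room for. For Nr4a1, Btg2, Ier2, Junb and Fos the fitted TSC1 level was between 0.862 and 1.13 times that of WT. The intervals of Btg2 reached from 0.873 to 1.46 times, those of Ier2 from 0.627 to 1.18 times, those of Junb from 0.721 to 1.42 times and those of Fos from 0.552 to 1.43 times. The interval of Arc reached from 0.459 to 1.24 times and that of Egr1 from 0.787 to 1.68 times.

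The genes varied more between mice of one genotype than most genes did. The pooled within-group SD of log2 CPM (prior count 2) had a median of 0.304 over the 9 genes and 0.141 over all tested genes, and all 9 genes lay above the latter. The 9 genes were not matched to the others on counts, and counting error is larger at low counts. With the same prior count, counting alone gives an SD of 0.374 at the mean of 10.5 counts of Fosb, whose SD was 0.407, and of 0.278 for Egr2, whose SD was 0.285. For Egr1, with a mean of 269 counts, the SD was 0.408 against 0.0873 from counting. The SDs of Arc and Fos were 0.489 and 0.459 against 0.195 and 0.196. These values describe 3 mice in each group and were not tested.

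**Figure D3:**
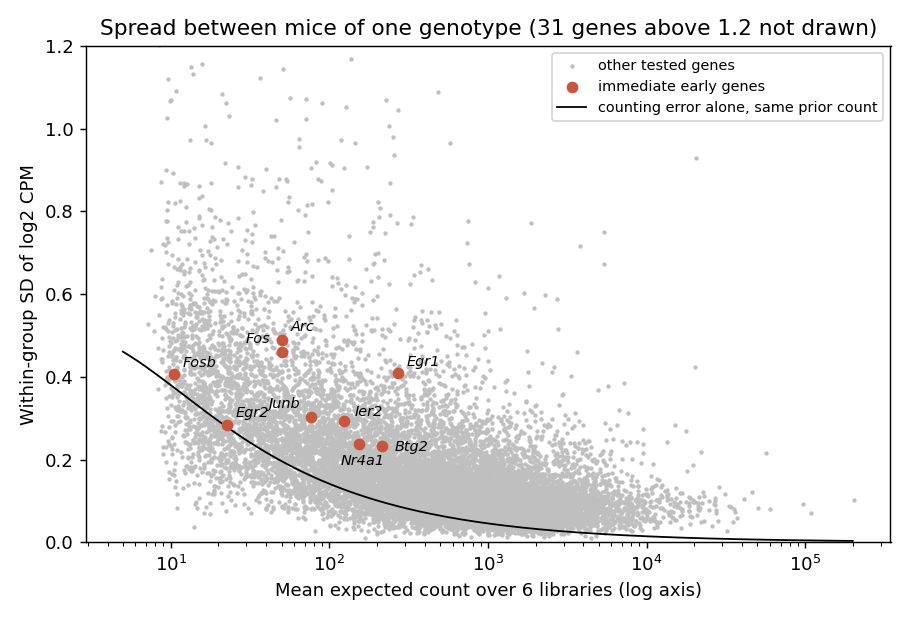
Within-group SD of log2 CPM, pooled over both genotypes, against the mean expected count on a log axis for each tested gene (grey) and for the 9 immediate early genes (red), with the SD that counting error alone gives at the same prior count as a line. Egr1, Arc and Fos stand further above the line than Fosb and Egr2, which lie close to it, and 31 genes with an SD above 1.2 are not drawn.

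Among the libraries, the genes varied partly together and not by genotype alone. After each gene was centred on its own mean log2 CPM, 8 of the 9 genes lay above their mean in WT replicate 2, 7 in WT replicate 3 and 6 in TSC1 replicate 3, against 3 in WT replicate 1, 2 in TSC1 replicate 1 and 4 in TSC1 replicate 2. The mean deviation was 0.20, 0.22 and 0.13 in the first 3 of these libraries and -0.17, -0.15 and -0.22 in the other three. Each genotype thus held high and low libraries, though WT replicates 2 and 3 were the highest and TSC1 replicate 2 the lowest. Fos, Egr1 and Arc were on the same side of their means in all 6 libraries. Of the 36 pairs of genes, 13 were on the same side in 5 or 6 libraries and 7 in 0 or 1. No share was computed for pairs of other genes. Btg2 went the other way, lying on the opposite side from Fos, Egr1 and Arc in each of the 6 libraries. Ier2 matched Nr4a1 in 1 library only. Libraries share depth and tissue makeup across genes, so these counts describe the 6 libraries and carry no test.

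**Figure D4:**
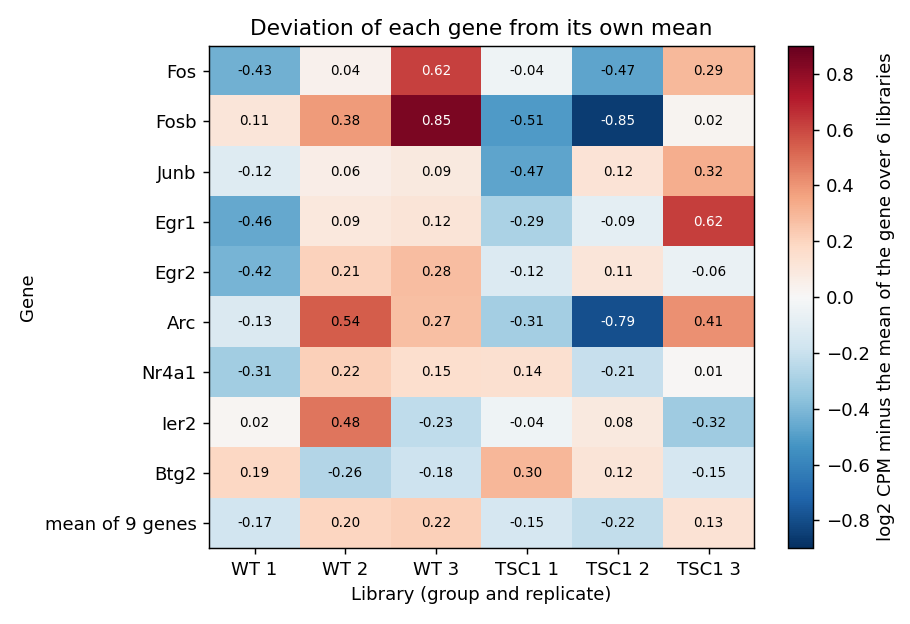
Log2 CPM of each gene minus its mean over the 6 libraries, by library (columns, group and replicate) and gene (rows), with the mean of the 9 genes in the last row. Values are high in WT replicates 2 and 3 and in TSC1 replicate 3 for most genes, while Btg2 shows the reverse, with 0.30 in TSC1 replicate 1 and -0.26 in WT replicate 2.

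The tested genes nearest to their mean profile, by the mean absolute difference of centred log2 CPM over the 6 libraries, were 2610524H06Rik at 0.0126, Snx18 at 0.0197, Zranb2 at 0.023, Fhl1 at 0.0244 and Setd6 at 0.0268. These are the closest of all tested genes and no reference value was computed for such distances. In all, 953 tested genes outside the set lay within 0.1, the median distance was 0.214 and the profile itself spanned 0.44.

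Of 35 other immediate early genes, chosen from general knowledge with earlier results of these data known, 34 were tested. In TSC1, 1 was called higher and 1 lower. Their median log2 fold change was 0.01, and 17 were higher and 17 lower in TSC1. Without adjustment, 11 of the 34 had an edgeR p below 0.05, 5 higher and 6 lower, against 18% of all tested genes. Per1, a circadian clock gene that stimuli also induce through CRE sites, had 19.31, 17.53 and 19.56 TPM in WT replicates 1, 2 and 3 and 28.38, 25.4 and 26.81 TPM in TSC1 replicates 1, 2 and 3. All TSC1 libraries lay above all WT libraries. Per1 rose by a log2 fold change of 0.49 (SE 0.0864, edgeR adjusted p = 0.0352). Rgs2, an inhibitor of G protein signaling, had 35.57, 27.15 and 33.58 TPM in WT replicates 1, 2 and 3 and 23.74, 21.26 and 21.09 TPM in TSC1 replicates 1, 2 and 3, again without overlap. Rgs2 fell by 0.57 on the log2 scale (SE 0.113, edgeR adjusted p = 0.0479). Of all tested genes, 0.859% were called higher and 0.659% lower. The groups did not overlap for 8 of the 34 genes, near the share of 22.7% over all tested genes.

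Per1 was called in 12 and Rgs2 in 9 of the 16 alternatives. Leaving out WT replicate 2, WT replicate 3, TSC1 replicate 1 or TSC1 replicate 2 left 0 of the 34 genes called, and leaving out WT replicate 1 or TSC1 replicate 3 gave 4 and 5. Per1 was among the genes called in both of these, and Rgs2 only in the one without TSC1 replicate 3, its edgeR adjusted p being 0.0597 without WT replicate 1. Rgs2 was also not called by limma at either pseudocount (adjusted p = 0.0659 and 0.0691). The 3 genes with the largest fold changes in this list were not called. Cyr61, a secreted matrix protein gene, had a log2 fold change of 0.98 (SE 0.245, edgeR adjusted p = 0.0835), from 6.81 ± 1.2 TPM in WT to 13.9 ± 4.57 TPM in TSC1 (SD, n = 3 each). Klf10, a TGF-beta induced factor gene, had -0.78 (SE 0.197, edgeR adjusted p = 0.0871), from 23.7 ± 5.4 to 14.1 ± 2.34 TPM, and Egr4 is given above. Among the relatives of Ier2 and Btg2, named after their values were seen, Ier5 had -0.41, Btg1 -0.20 and Ier3 -0.70. The groups did not overlap for Ier5 and Btg1, as in 22.7% of all tested genes. None of these passed (edgeR adjusted p = 0.0888, 0.178 and 0.266).

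Delayed effectors are genes that the early factors or longer stimulation induce, such as growth factors and synaptic proteins. Of 18 listed, 17 passed the filter, 9 lay above and 8 below 0, the median being 0.02 (log2), and edgeR called 0. Without adjustment 5 of the 17 had an edgeR p below 0.05, against 18% of all tested genes. DESeq2 called 1 of these effectors, against 637 of 13824 genes. Bdnf, the neurotrophin gene, had 3.1, 2.4 and 1.95 TPM in WT replicates 1, 2 and 3 and 4.62, 4.25 and 3.26 TPM in TSC1 replicates 1, 2 and 3. Bdnf had a log2 fold change of 0.63 (SE 0.202, edgeR adjusted p = 0.147). Nptx2, which clusters AMPA receptors at excitatory synapses, had 15.08, 15.03 and 14.12 TPM in WT replicates 1, 2 and 3 and 8.85, 7.11 and 11.63 TPM in TSC1 replicates 1, 2 and 3. The log2 fold change of Nptx2 was -0.70 (SE 0.175, edgeR adjusted p = 0.0845). The groups overlapped for neither gene, which held for 22.7% of all tested genes, and the signs were opposite. Gem, a small GTPase gene, had 0.43 (SE 0.31, edgeR adjusted p = 0.501).

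The upstream regulators are the kinases, channels and factors that connect calcium entry to immediate early gene promoters. Of 33 tested, 2 were called higher and 0 lower in TSC1, against 0.859% and 0.659% of all tested genes. In all, 22 lay above and 11 below 0, the median being 0.04 (log2). Without adjustment, 4 of the 33 had an edgeR p below 0.05, 4 higher and 0 lower, against 18% of all tested genes. Camk4, a calcium/calmodulin kinase that phosphorylates CREB, had 59.29, 51.91 and 47.16 TPM in WT replicates 1, 2 and 3 and 69.7, 76.77 and 73.45 TPM in TSC1 replicates 1, 2 and 3. It rose by a log2 fold change of 0.45 (SE 0.0801, edgeR adjusted p = 0.0352). Mef2c, an activity-regulated transcription factor of cortical neurons, had 523.08, 502.96 and 497.25 TPM in WT replicates 1, 2 and 3 and 699.47, 724.99 and 617.68 TPM in TSC1 replicates 1, 2 and 3. It rose by 0.40 (SE 0.075, edgeR adjusted p = 0.0433). In both genes the groups did not overlap, as in 22.7% of all tested genes. Without WT replicate 2, WT replicate 3, TSC1 replicate 1 or TSC1 replicate 2, 0 of the 33 genes were called. Without WT replicate 1 Mef2c was not called either (edgeR adjusted p = 0.0551), while Camk4 and Grin2b were. Grin2b, an NMDA receptor subunit gene, had the third largest fold change at 0.36 (SE 0.164, edgeR adjusted p = 0.289).

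**Figure D5:**
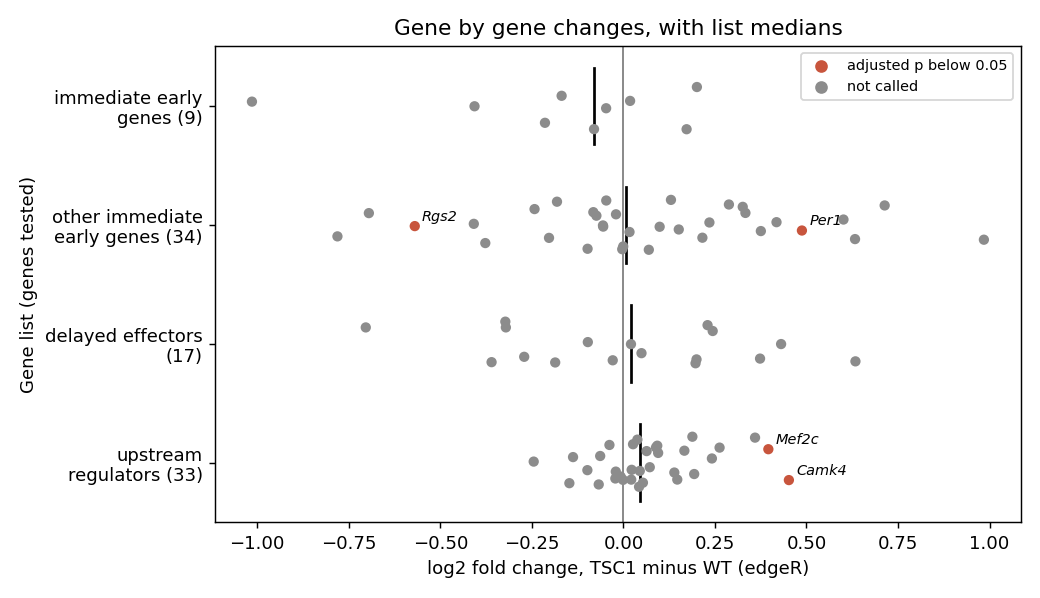
Log2 fold change of TSC1 minus WT from edgeR for each tested gene of the 9 immediate early genes, 34 other immediate early genes, 17 delayed effectors and 33 upstream regulators, with the list median as a black line and called genes in red. Medians lie between -0.08 and 0.04, and the called genes are Per1, Rgs2, Camk4 and Mef2c.

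Among markers of cell types, 4 GABAergic genes, Sox2 and Gfap passed the test, and other lists differed in their summed levels without a call. The 7 striatal genes with a row summed to between 276.25 and 375.02 TPM in WT and between 89.78 and 213.53 TPM in TSC1, with 7 of 7 lower and none at 0, though 0 were called. The 5 GABAergic genes summed to between 389.53 and 445.47 TPM in WT and between 232.93 and 298.13 TPM in TSC1. All 5 were lower in TSC1 and 4 were called, against 1.52% of all tested genes called in either direction. The 5 choroid plexus genes summed to between 1162.57 and 2452.31 TPM in WT and between 28.97 and 858.28 TPM in TSC1, none called. TSC1 replicate 3, the TSC1 library with the highest Egr1, Arc and Fos, was also the highest TSC1 library in all 3 of these sums. The WT libraries were mixed. WT replicate 2 had the highest Egr1 and Arc in WT but the lowest GABAergic and choroid plexus sums, 389.53 and 1162.57 TPM. WT replicate 3 had the highest Fos and was the highest WT library in all 3 sums. The 5 pallial neuron genes summed to between 1385.34 and 1574.19 TPM in WT and between 1453.42 and 1858.98 TPM in TSC1, none called. None of the 7 microglial, 7 endothelial, 4 mural and 7 meningeal genes was called and their sums overlapped between the groups, but 5, 6, 3 and 7 of them were lower in TSC1, with medians of -0.53, -0.49, -0.26 and -0.42 on the log2 scale. Of these, 3 microglial, 5 endothelial, 2 mural and 1 meningeal gene had an unadjusted edgeR p below 0.05, against 18% of all tested genes. The same held for 6 of the 7 striatal, 5 of the 5 GABAergic and 5 of the 5 choroid plexus genes. It also held for 4 of the 4 tested red blood cell genes and 2 of the 5 pallial neuron genes. Red blood cell genes reached 5565.94 TPM in WT replicate 3, the library with the highest Fos and Fosb, against at most 2044.11 TPM elsewhere. Among the 7 progenitor genes 5 were lower in TSC1, and Sox2 alone was called. Among the 5 astrocyte genes Gfap alone was called, higher in TSC1. Of these 5, 2 were higher and 3 lower, 2 of the lower ones at an unadjusted edgeR p below 0.05. None of the 5 oligodendrocyte precursor genes was called, and 2 had an unadjusted edgeR p below 0.05. The 6 heat shock genes summed to between 2056.6 and 2089.58 TPM in WT and between 1888.6 and 2061.3 TPM in TSC1, and none was called. Most of this sum was Hspa8, with means of 1845.28 TPM in WT and 1708.93 TPM in TSC1, so it says little on the others. Of the 6 genes 5 were lower in TSC1, and Hspa1b alone had an unadjusted edgeR p below 0.05 (0.0159). The part of these differences in the immediate early gene values was not tested.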

How the data were processed

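Telencephalon RNA of 3 WT and 3 TSC1 mice, grouped by sample title, was sequenced by the authors as 1 library per mouse. The authors checked reads with FastQC, trimmed them, mapped them with MapSplice2 on mm10 and estimated gene abundance over RefSeq transcripts (release not given in the sources used here) with RSEM 1.2.12. The deposited expected count is RSEM's unnormalized estimate of reads per gene. The deposited TPM divides counts by effective length and sums to a fixed total per library. The deposited FPKM, also from RSEM, was not used. Expected counts of the 9 members were whole numbers in all 6 libraries, so no reads of theirs were divided between genes.

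Rounded counts entered edgeR 4.0.16 under R 4.3.3 (TMM, filterByExpr, quasi-likelihood test, no covariates) over 13969 genes, with Benjamini-Hochberg adjustment and a threshold of 0.05. The study's own permutation-based method was not rerun. Intervals are 95% intervals of the fit. DESeq2 1.42.0 and limma 3.58.1 on log2(TPM + 1) and log2(TPM + 0.1), where 3 or more libraries reached 1 TPM, were alternatives, as were other normalizations and filters, leaving out single replicates, and a replicate block. A term for libraries with Y-linked reads was added after seeing the data. The fits were tested on simulated data. Python 3.11.15 summarised the fits.

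The members and gene lists were chosen with earlier results of these data known. Named besides the members and Tsc1 were, from each of 3 lists, every called gene and the 3 largest fold changes, and the 5 nearest profiles. Relatives of members were added after their values were seen. Positions are from GENCODE M21 (GRCm38) and promoters from RefSeq (GRCm38.p6). Windows were used for 6 of the 9 members.

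The libraries of a group were distinct, with a chi-square per degree of freedom of 5.68 to 17.4 between pairs. Depth was between 14119365 and 17772865 counts.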

Additional observations from a re-analysis of the deposited data

How the results depend on the processing

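None of the 9 immediate early genes was called in any of the 16 alternatives, although Fosb was not tested by limma or with at least 10 counts in every sample, and DESeq2 gave it no adjusted p. Direction turned for several genes of small fold change. Junb was -0.012 with upper-quartile factors, -0.0067 with the replicate block and -0.00014 with the term for Y-linked reads. With each replicate left out in turn, log2 fold changes lay between -0.39 and 0.14 for Fos, -0.17 and 0.22 for Junb, -0.12 and 0.38 for Egr1, -0.29 and 0.046 for Egr2, -0.20 and 0.056 for Nr4a1, and -0.36 and 0.015 for Ier2. Fosb, Arc and Btg2 kept their direction in all their alternatives.

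The count over all genes was 212, and it became 637 with DESeq2, 346 with no filter, 551 with the replicate block, 691 with the term for Y-linked reads, and between 29 and 799 with 1 replicate left out. The other immediate early genes called were 2, and became 6 with DESeq2, 1 with limma at either pseudocount, 5 with the replicate block, 5 with the Y-linked term, and 0 to 5 with 1 replicate left out. Delayed effectors called were 0, and became 1 with DESeq2, 1 with the Y-linked term, and 0 to 3 with 1 replicate left out, the 3 without TSC1 replicate 3. Upstream regulators called were 2, and 0 to 2 with 1 replicate left out. The cause of these changes was not tested. Upper-quartile factors moved the median log2 fold change of all genes from -0.003 to -0.034.

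Numbers were not shown to pair the mice. The paper used Cre-negative littermates as controls but does not say which mice shared a litter. Deviations of libraries from their group means were correlated across genes, which are not independent. Same-numbered WT and TSC1 libraries had r = 0.267, -0.133 and 0.318 for numbers 1, 2 and 3, and differently numbered pairs lay between -0.394 and 0.211. The replicate 3 libraries also shared Y-linked reads. The replicate block called 0 of the 9 genes, and 551 against 212 of all genes, which does not settle the pairing. Depth limited Fosb and Egr2 most, at 4 to 17 and 17 to 30 counts per library.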
